A study of Homo sapiens with 3 samples.

Results

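The 10 genes described here encode the core of the RNA interference and microRNA machinery: the Argonautes *AGO1*, *AGO2*, *AGO3* and *AGO4*, the nucleases *DICER1* and *DROSHA*, the DROSHA partner *DGCR8*, the export receptor *XPO5* and the scaffolds *TNRC6A* and *TNRC6B*. They were chosen by name, with earlier results of these data known. Every gene probe of the array whose RefSeq transcript belongs to one of them was taken, which gave 14 probes out of 50599. HCT116, the cells used, is an established line from a human colon carcinoma. The cells received control siRNA, siRNA #7 or siRNA #8 for 48 h. Both numbered siRNAs were directed at *HOXA5* short RNA, a non-coding transcript of the *HOXA* cluster, and their arrays carry the label of *HOXA5* short RNA silencing, while the control siRNA array is labelled as control. All groups therefore share the transfection of a small duplex RNA, and no array of untransfected cells was analysed here. From each condition 400 ng of total RNA was labeled with Cy3 and hybridized to 1 array.

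MicroRNAs are made from long hairpin transcripts, which DROSHA and DGCR8 cut in the nucleus, XPO5 carries to the cytoplasm and DICER1 trims to a short duplex. An Argonaute protein keeps a single strand of the duplex as its guide, and TNRC6 proteins then link the Argonaute to the enzymes that shorten and decap the target mRNA. A transfected siRNA enters this pathway at the Argonaute step, and AGO2 is the human Argonaute best known for cutting a fully matched target.

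The sequences of both siRNAs are shown because they are the agents that separate the arrays. Each is 21 bases long, and the capitals mark the stretch of 17 bases that they share: it ends siRNA #7 and opens siRNA #8. Which strand served as the guide was not stated in the sources used here.
siRNA #7: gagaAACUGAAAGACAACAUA
siRNA #8: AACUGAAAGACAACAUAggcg

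The deposited intensities of each array, already background-subtracted, were divided by the 75th percentile of that array (42.1 to 52.8) to give a level, and a log2 ratio is the difference of the log2 levels of 2 arrays. Well above background is a flag of the scanner software, and 19069 to 20473 of the 50599 probes carried it on each array. A probe passed when it carried the flag on all 3 arrays, and 12031 genes had such a probe. With 1 array per condition no ratio has a replicate check and no p-value is given for a ratio of 2 arrays. A spot-to-spot SD, taken from 902 probes printed 10 times, stands beside each ratio, and it leaves out the variation between cultures. The log2 ratio of the single *HOXA5* probe was -0.36 with siRNA #7 (spot-to-spot SD 0.25) and -0.23 with siRNA #8 (SD 0.26), and whether that probe reads *HOXA5* short RNA was not tested. Of 8 epithelial markers 6 were well above background on all arrays, *KRT20* and *VIL1* being the exceptions, and of 9 markers of other cells 2 were (*CD68* and *COL1A1*, with intensities of at most 48.1). With 400 ng of RNA labeled from each condition, the arrays measured neither cell number nor RNA per cell, and these cannot be told apart here.

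Of the 14 probes 13 passed, and 9 of the 10 genes had a passing probe, *AGO4* being the exception. Where several probes of a gene passed, the brightest stands for the gene, and the others are given beside it for the genes named. With siRNA #7, *DICER1* and *AGO1* were more than 2-fold lower than with control siRNA, that is 2 of 9 genes, where 1.72% of all 12031 genes were that much lower and 3.77% were past 2-fold in either direction. None of the 9 was 2-fold higher with siRNA #7, against 2.04% of all genes. With siRNA #8, 0 of 9 genes were past 2-fold in either direction, against 4.98% of all genes (1.95% higher and 3.03% lower). Between siRNA #8 and siRNA #7, 0 of 9 were past 2-fold, against 5.64% of all genes (2.29% higher and 3.35% lower).

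At the lower threshold of 1.5-fold, *DICER1*, *AGO1* and *TNRC6A* were lower with siRNA #7, 3 of 9 against 6.93% of all genes, and none was higher, against 7.56%. In either direction 14.5% of all genes were past 1.5-fold. With siRNA #8, *DICER1* and *TNRC6A* were past 1.5-fold lower, 2 of 9 against 10.3% of all genes, and *TNRC6B* was past it higher, 1 of 9 against 7.79%, so that 3 of 9 were past it in either direction, against 18.0%. These shares rest on 9 genes and on folds between single arrays, and they describe the arrays.

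**Figure D1:**
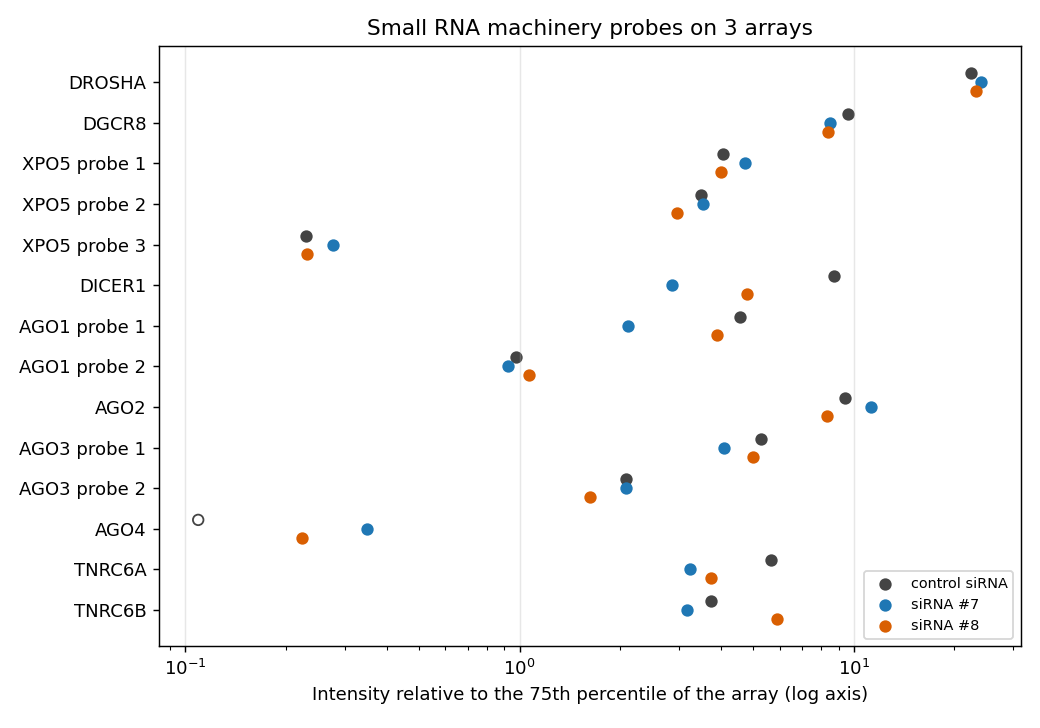
Levels of the 14 probes on the 3 arrays, as intensity relative to the 75th percentile of the array on a log axis. Filled points were well above background and the open point (*AGO4*, control siRNA) was not; positions are to be compared along a row only, since probes differ in how brightly they report. *DICER1*, *AGO1* probe 1 and *TNRC6A* are lowest with siRNA #7, and *TNRC6B* is highest with siRNA #8.

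*DROSHA*, the nuclease that opens the pathway, differed little between the arrays. Its spot read 1187 on the control array, 1013 after siRNA #7 and 989 after siRNA #8. Once scaled, the log2 ratio to control was 0.10 with siRNA #7 (SD 0.14) and 0.04 with siRNA #8 (SD 0.15), both smaller than the spot-to-spot SD. *DGCR8*, the RNA-binding partner that holds the hairpin for DROSHA, had an intensity of 506, 356 and 359 in the same order. Its log2 ratio was -0.18 with siRNA #7 (SD 0.15) and -0.20 with siRNA #8 (SD 0.17), and with the median ratio of the neighbouring spots removed these values were -0.43 and -0.29.

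The *DGCR8* transcript itself holds microRNA hairpins. In RefSeq, *MIR3618* and *MIR1306* lie within *DGCR8* on the same strand of chromosome 22, and their mature sequences are shown because cutting of these hairpins and the level of the host transcript concern the same RNA. The capitals mark the seed, bases 2 to 8, which does most of the target pairing. The 3 seeds differ from each other, and no other mature microRNA of the RefSeq table shares any of them. Positions are on GRCh38.p14, plus strand.
hsa-miR-3618 at chr22:20085797-20085818: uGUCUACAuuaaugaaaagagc
hsa-miR-1306-5p at chr22:20086072-20086093: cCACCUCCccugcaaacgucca
hsa-miR-1306-3p at chr22:20086112-20086129: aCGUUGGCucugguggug

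No probe of the array was named for these hairpins, so only the host transcript was measured.

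*XPO5*, the receptor that brings precursor hairpins out of the nucleus, was read by 3 passing probes. The brightest read 214 on the control array, 199 after siRNA #7 and 171 after siRNA #8, with log2 ratios of 0.22 (SD 0.16; -0.10 under spike-in scaling) and -0.02 (SD 0.18). A second probe, with intensities of 185, 149 and 127, gave 0.02 and -0.24. The dimmest, with intensities of 12.1, 11.6 and 9.91, gave 0.27 (SD 0.40) and 0.01 (SD 0.41). The 3 probes lay in separate places on the array, the brightest at column 4 of 164. All of them put siRNA #8 below siRNA #7, with log2 ratios of -0.24 (SD 0.16), -0.26 (SD 0.17) and -0.26 (SD 0.38). For the second probe this difference was 0.07 once the median ratio of the neighbouring spots was removed, so the direction held for 2 of the 3 probes under that correction.

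*DICER1*, which cuts precursor hairpins to the mature duplex, showed the lowest ratio of the 9 genes in both comparisons with control. Its 1 probe, on 1 spot, gave an intensity of 461 on the control array, 120 after siRNA #7 and 205 after siRNA #8. As levels relative to the 75th percentile these are 8.72, 2.86 and 4.80. It was 3.05-fold lower with siRNA #7 (log2 ratio -1.61, SD 0.16) and 1.82-fold lower with siRNA #8 (log2 ratio -0.86, SD 0.18). Among the 12031 genes 41 had a lower ratio with siRNA #7 and 533 had a lower ratio with siRNA #8.

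The size of these ratios changed when the neighbouring spots were taken into account. The *DICER1* spot sat at column 162 of 164 and row 13 of 384. The median log2 ratio of its 11 usable neighbours, within 3 rows and 3 columns, was -0.53 with siRNA #7 and 0.37 with siRNA #8. With these neighbour medians removed, the *DICER1* log2 ratio was -1.08 with siRNA #7 and -1.23 with siRNA #8, so that it stayed past 2-fold lower with siRNA #7 and came past it with siRNA #8. The log2 ratio between siRNA #8 and siRNA #7 went from 0.75 (SD 0.17) to -0.14 under the same correction, and so the order of the siRNA arrays for *DICER1* was not settled by its 1 spot. Over all genes read by 1 spot, 3.06% of those in the outermost 5 columns on each side and 1.69% of those elsewhere were 2-fold lower with siRNA #7, and 4.95% and 2.93% with siRNA #8. In the same places 4.37% and 1.96% were 2-fold higher with siRNA #7, and 3.64% and 1.89% with siRNA #8. The outer columns thus held more genes past 2-fold in both directions. The part of the spot position in the *DICER1* values was not tested.

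When both siRNA arrays were joined as 1 silenced group and set against the control array in limma, a use of the siRNAs as replicates of each other, *DICER1* had a log2 ratio of -1.23 with an unadjusted p of 0.020 and an adjusted p of 1.0 over 18121 probes. It was the only gene of the 9 with an unadjusted p below 0.05 in limma, and 0 passed after adjustment. Among all 18121 probes limma called 1 higher (0.00552%) and 0 lower at an adjusted p below 0.05, and 453 higher and 206 lower at an unadjusted p below 0.05, which is 2.50% and 1.14%.

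*DICER1* also hosts a hairpin, *MIR3173*, on the minus strand of chromosome 14. Its mature sequences are shown because *DICER1* is the gene with the lowest ratios, with the seed (bases 2 to 8) in capitals and positions on GRCh38.p14, minus strand. The seed of hsa-miR-3173-3p is shared with hsa-miR-12118 and hsa-miR-6891-5p, and that of hsa-miR-3173-5p with hsa-miR-6799-3p. The array named no probe for this hairpin, so its level was not measured.
hsa-miR-3173-5p at chr14:95137961-95137982: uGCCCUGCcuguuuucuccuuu
hsa-miR-3173-3p at chr14:95137923-95137944: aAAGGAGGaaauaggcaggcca

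**Figure D2:**
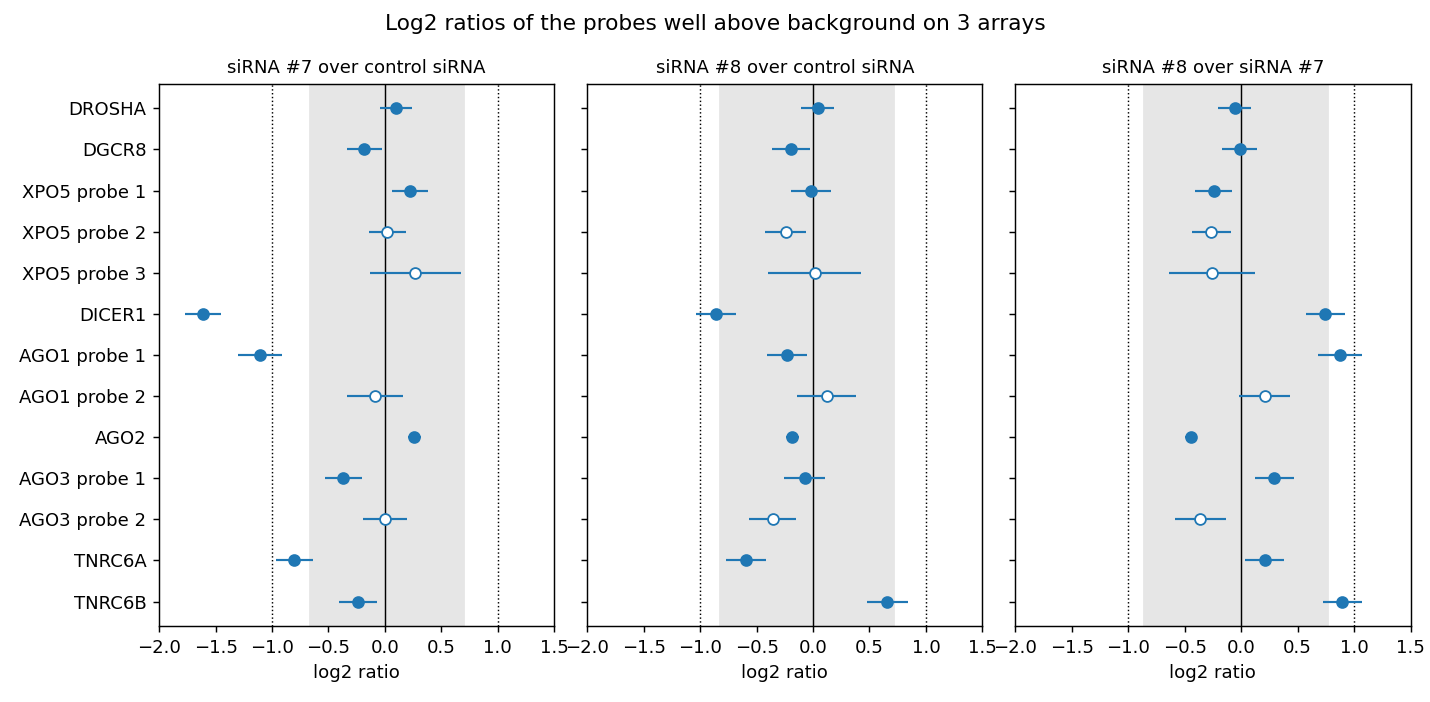
Log2 ratios of the 13 passing probes in 3 comparisons of single arrays, with bars of 1 spot-to-spot SD. Filled points are the brightest passing probe of a gene and open points its other probes, the grey band holds the middle 90% of all 12031 genes, and dotted lines mark 2-fold; *DICER1* and *AGO1* probe 1 lie beyond 2-fold lower with siRNA #7, and *TNRC6B* lies on opposite sides of 0 with siRNA #7 and siRNA #8. The *AGO2* bars, of 0.056, are hidden by the points.

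By the brightest probe, *AGO1* and *AGO3* lay below control with siRNA #7 and *AGO2* above it. With siRNA #8 *AGO1*, *AGO2* and *AGO3* all lay below control, *AGO3* by less than 1 spot-to-spot SD. *AGO1*, *AGO3* and *AGO4* are neighbouring genes on chromosome 1, and *AGO2* lies apart from them on chromosome 8. For *AGO1*, which like the others binds guide RNAs but is known mainly for repression without cutting, the brightest probe read 240 on the control array, 89.1 after siRNA #7 and 166 after siRNA #8. It was 2.15-fold lower with siRNA #7 (log2 ratio -1.10, SD 0.19) and 1.17-fold lower with siRNA #8 (log2 ratio -0.23, SD 0.18). A second passing probe of the same RefSeq transcript, with intensities of 51.7, 38.8 and 45.6, had log2 ratios of -0.09 (SD 0.25) and 0.12 (SD 0.26). Between siRNA #8 and siRNA #7 the brightest probe stood at 0.88 (SD 0.20), or 1.07 with the neighbours removed, and the second at 0.21 (SD 0.23).

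The low value of *AGO1* with siRNA #7 therefore came from 1 of its 2 probes. Removing the neighbours left the brightest probe at -1.06 with siRNA #7, while the mean of both probes was -0.60, no longer past 2-fold. Of the 2712 genes with at least 2 passing probes, 7.74% had probes that differed by 1 or more on the log2 scale with siRNA #7. Which of the *AGO1* probes follows the transcript was not tested.

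*AGO3* was also read by a pair of probes that went apart. In the order control, siRNA #7, siRNA #8, the brightest read 278, 172 and 214, with log2 ratios of -0.37 (SD 0.16) and -0.07 (SD 0.18). The other, with intensities of 110, 87.5 and 69.3, gave 0.00 (SD 0.19) and -0.36 (SD 0.21). Between siRNA #8 and siRNA #7 the first probe was higher (0.29, SD 0.17) and the second lower (-0.36, SD 0.23), so *AGO3* had no settled order between the siRNA arrays.

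*AGO4* was at the edge of detection. Its intensity was 5.77 on the control array, 14.7 after siRNA #7 and 9.53 after siRNA #8, and the control value did not carry the well above background flag. Its levels were set against the lowest intensity of any probe well above background on the control array, 6.13, each scaled to its own array. Against that intensity *AGO4* was 3.0-fold higher with siRNA #7 and 1.92-fold higher with siRNA #8, on 1 spot per array. These folds are not strict bounds, because probes without the flag can lie above the lowest flagged intensity. On the siRNA #7 array an *EDC4* probe read 9.49 without the flag, and the lowest flagged intensity there was 6.75. The log2 ratio between siRNA #8 and siRNA #7, where both were above background, was -0.65 (SD 0.38). *AGO4* entered none of the counts of 9 genes, since its probe could pass only through the arrays on which it is high.

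*AGO2*, the Argonaute that cuts matched targets, was the best measured of the 10 genes, because its probe was printed on 10 spots across the array. On the control siRNA array the 9 spots without an outlier flag ran from 450 through a median of 492 to 549. On the siRNA #7 array only 6 spots were free of the flag, and they ran from 452 through 480 to 490. On the siRNA #8 array 9 spots ran from 335 through 358 to 378. As levels, the spots covered 8.52 to 10.4 on the control array, 10.7 to 11.6 after siRNA #7 and 7.83 to 8.83 after siRNA #8. These siRNA #7 spots lay above those of the other arrays, and those of control siRNA and siRNA #8 overlapped. With the flagged spots kept, the siRNA #7 spots reached from 9.86 to 12.3 and overlapped those of control siRNA. Spots of an array share 1 culture and 1 labeling and are not replicates of a condition.

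The log2 ratio of *AGO2* to control was 0.26 with siRNA #7 and -0.18 with siRNA #8, and -0.44 between siRNA #8 and siRNA #7, each with an SD of 0.056. With the flagged spots kept, these values were 0.26, -0.19 and -0.46. In the order of all 12031 genes, 2836 had a higher ratio with siRNA #7 and 3854 a lower ratio with siRNA #8. The direction with siRNA #7 turned with the scaling: set to the E1A spike-in controls, which put the median gene 0.32 lower with siRNA #7, the ratio was -0.06. The order of the siRNA arrays, siRNA #8 below siRNA #7, kept its sign under all 11 settings tried, with log2 ratios of -0.44 to -0.34. The weaker filters and the mean of probes could only return the reported value.

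**Figure D3:**
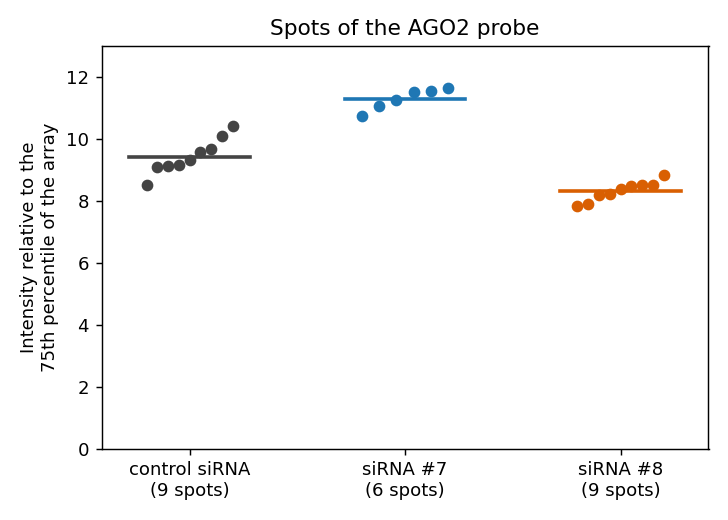
Each spot of the *AGO2* probe without an outlier flag, as intensity relative to the 75th percentile of its array, on an axis that starts at 0. Horizontal lines are geometric means over 9, 6 and 9 spots; the siRNA #7 spots lie at 10.7 to 11.6, above the unflagged spots of the other arrays.

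The genes whose ratios were nearest to those of *AGO2*, by Euclidean distance of both log2 ratios over 3 arrays, were *ARHGAP39* (distance 0.009), *MPG* (0.011) and *BRF2* (0.011). Many genes have small ratios such as these, and the likeness is a description of 3 arrays.

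*TNRC6A* and *TNRC6B* encode related scaffold proteins that Argonautes recruit to shut down a target. Both lay below control with siRNA #7, and they lay on opposite sides of it with siRNA #8. *TNRC6A* read 298 on the control array, 136 after siRNA #7 and 160 after siRNA #8. It was 1.74-fold lower with siRNA #7 (log2 ratio -0.80, SD 0.16) and 1.51-fold lower with siRNA #8 (log2 ratio -0.59, SD 0.18). Both siRNA arrays thus lay below control by more than 3 times the spot-to-spot SD, and they differed from each other by 0.21 (SD 0.17). Both ratios rest on the same control spot. Of the 12031 genes 393 had a lower ratio with siRNA #7 and 1204 had a lower ratio with siRNA #8. With the neighbours removed the ratios were -0.79 and -0.63, nearly the same as before.

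*TNRC6B* read 198 on the control array, 134 after siRNA #7 and 253 after siRNA #8. Its log2 ratio was -0.24 with siRNA #7 (SD 0.16) and 0.66 with siRNA #8 (SD 0.18), and it was 1.86-fold higher with siRNA #8 than with siRNA #7 (log2 ratio 0.90, SD 0.17), the highest value of the 9 genes in that comparison, with *AGO1* next to it. Of the 12031 genes 400 had a higher ratio between siRNA #8 and siRNA #7. With the neighbours removed these ratios were -0.31, 0.62 and 0.93. *TNRC6B* was the only gene of the 9 past 1.5-fold higher with siRNA #8.

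Of the 9 genes with a passing probe, more lay below control than above it. *AGO4*, outside these counts, read higher with both siRNAs than on the control array, where it was not well above background. With siRNA #7, 3 were higher and 6 lower than control, with a median log2 ratio of -0.24, while the median of all genes was 0.01 and 48.5% of them were lower. With siRNA #8, 2 were higher and 7 lower, with a median of -0.18, against an all-gene median of 0.01 and 49.2% lower. Within 1 spot-to-spot SD of control there were *XPO5* (-0.02) and *AGO3* (-0.07) among the lower and *DROSHA* (0.04) among the higher. By the brightest probe, *DICER1*, *TNRC6A*, *AGO1*, *AGO3* and *DGCR8* lay below control on both siRNA arrays, 5 of 9 genes against 30.4% of all genes. This did not hold for *AGO1* (0.00) and *AGO3* (0.09) with siRNA #8 once neighbours were removed. Nor did it hold by their second probes, at 0.12 for *AGO1* with siRNA #8 and 0.00 for *AGO3* with siRNA #7. *DROSHA* lay above control on both, 1 of 9 against 32.7% of all genes, and it lay below control on both with spike-in scaling (-0.23 and -0.20), with normexp background correction (-0.05 and -0.03) and with neighbours removed (-0.08 and -0.15). These comparisons use the same control array, so a high or low control spot enters both ratios. Between siRNA #8 and siRNA #7, a comparison without the control array, 5 were higher and 4 lower, with a median of 0.21 against -0.01 for all genes, of which 51.1% were lower. *TNRC6B*, *AGO1* and *DICER1* were past 1.5-fold higher there, 3 of 9 against 8.89% of all genes and none was past it lower, against 11.6% (20.5% in either direction). Of these 3, *DICER1* lost that difference when the neighbours were removed.

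The direction of *DICER1*, *TNRC6A*, *TNRC6B* and *DGCR8* relative to control was the same under all 11 settings tried. Each of these genes has 1 passing probe, so the weaker filters and the mean of probes could only return the reported value. *DICER1* ranged from -1.93 to -1.08 with siRNA #7 and from -1.23 to -0.80 with siRNA #8. *TNRC6A* ranged from -1.13 to -0.76 with siRNA #7 and from -0.83 to -0.51 with siRNA #8, and it came past 2-fold with siRNA #7 under spike-in scaling. *TNRC6B* ranged from -0.56 to -0.02 with siRNA #7 and from 0.42 to 0.71 with siRNA #8. *DGCR8* ranged from -0.51 to -0.15 with siRNA #7 and from -0.44 to -0.14 with siRNA #8. *AGO1* and *AGO3* kept their sign under all 11 settings with siRNA #7 only, and *AGO2* with siRNA #8 only. *DROSHA* kept its sign in 8 of 11 settings with siRNA #7 and in 7 of 11 with siRNA #8, so no direction is given for it.

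**Figure D4:**
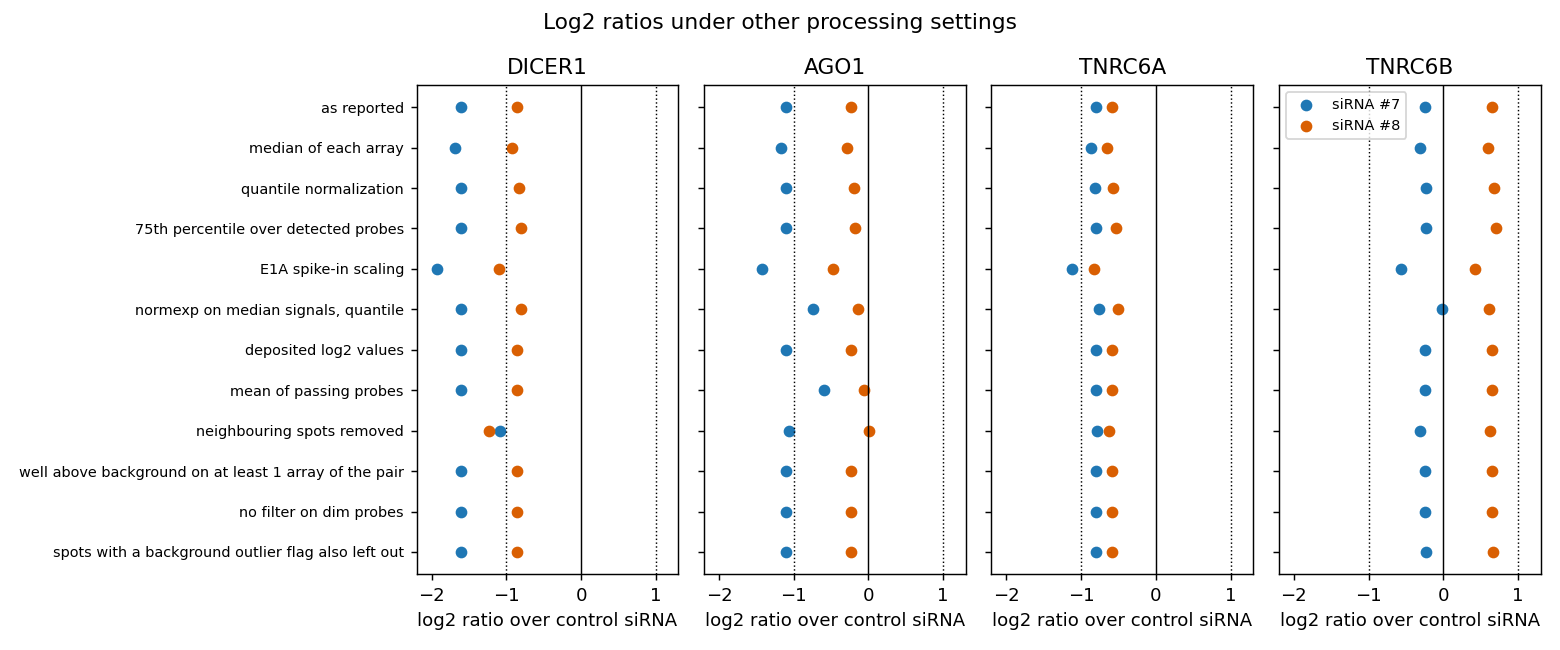
Log2 ratios of *DICER1*, *AGO1*, *TNRC6A* and *TNRC6B* to control siRNA as reported and under 11 other processing settings, with siRNA #7 in blue and siRNA #8 in orange; dotted lines mark 2-fold. *DICER1* with siRNA #7 moved from -1.61 to -1.08 when neighbouring spots were removed, and *AGO1* with siRNA #7 moved from -1.10 to -0.60 with the mean of its probes.

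Among 70 other genes of the pathway, in 6 lists, 62 had a passing probe. With siRNA #7, 26 were higher and 36 lower, 0 were past 2-fold higher and 2 past 2-fold lower, and the median log2 ratio was -0.08. With siRNA #8, 29 were higher and 33 lower, 0 were past 2-fold higher and 2 past it lower, and the median was -0.03. Of all genes 1.72% and 3.03% were past 2-fold lower in these comparisons, and 2.04% and 1.95% were past it higher. At any size, 48.5% and 49.2% of all genes were lower.

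Of the partners of DROSHA and DGCR8 in the nucleus all 10 were measured, 4 higher and 6 lower with siRNA #7 and 5 and 5 with siRNA #8. *NCBP2*, the small subunit of the nuclear cap-binding complex, had an intensity of 175, 58.6 and 119 and a log2 ratio of -1.25 with siRNA #7 (SD 0.19) and -0.25 with siRNA #8 (SD 0.18), or -1.05 and -0.47 with the neighbours removed. *DDX5*, an RNA helicase of the Microprocessor, had the highest mean of this list, with 0.08 and 0.07 (SD 0.14 and 0.15), or -0.09 and 0.11 with the neighbours removed. All 5 export and DICER1 partners were measured and none was past 1.5-fold, against 14.5% of all genes with siRNA #7 and 18.0% with siRNA #8. *RAN*, the GTPase that XPO5 needs to bind its cargo, stood at 0.25 and 0.06 by its brightest probe, or 0.06 and -0.30 with the neighbours removed, and at 0.04 and -0.30 by a second one, so that its direction with siRNA #8 was not settled. *PRKRA*, a double-stranded RNA-binding partner of DICER1, stood at -0.22 and -0.13, or -0.18 and -0.01 with the neighbours removed.

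All 11 chaperones and strand-removal factors that load Argonautes were measured, 3 higher and 8 lower with siRNA #7 and 6 and 5 with siRNA #8. *PTGES3*, the HSP90 co-chaperone p23, had an intensity of 117, 67.2 and 42.4 and log2 ratios of -0.47 (SD 0.19) and -1.16 (SD 0.21); its spot was at column 161, and with the neighbours removed the values were -0.67 and -1.46. *TSNAX*, a subunit of the nuclease that clears the discarded strand, had the highest mean of the list, with -0.04 (SD 0.16) and 0.43 (SD 0.18) by its brightest probe. A second *TSNAX* probe gave -0.11 (SD 0.33) and -0.26 (SD 0.34), on the other side of 0 with siRNA #8.

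Of the 29 effectors downstream of the Argonautes 28 were measured, 13 higher and 15 lower with siRNA #7 and 14 and 14 with siRNA #8. *PATL1*, a decapping scaffold, had an intensity of 172, 123 and 54.4 and log2 ratios of -0.15 (SD 0.16) and -1.36 (SD 0.21), and -1.20 between siRNA #8 and siRNA #7. Its spot was at column 3, and with the neighbours removed these values were 0.14, -1.01 and -1.14. *DCP2*, the decapping enzyme, had the highest mean of the list, with 0.40 and 0.12, or 0.20 and 0.00 with the neighbours removed. *CNOT1*, the scaffold of the deadenylase complex that TNRC6 proteins recruit, had an intensity of 73.9, 36.4 and 90.5 and lay on opposite sides of control, with -0.70 (SD 0.33) and 0.59 (SD 0.24), or -0.48 and 0.37 with the neighbours removed. Between siRNA #8 and siRNA #7 *CNOT1* stood at 1.29 (SD 0.29), and at 0.85 with the neighbours removed. As reported, it was the 1 gene of the 62 past 2-fold higher there, against 2.29% of all genes.

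Of the 11 genes for tailing, trimming and decay of small RNAs 8 were measured, with medians of -0.30 and -0.13. With either siRNA 2 were higher and 6 lower, where 48.5% and 49.2% of all genes were lower. *TENT2*, a poly(A) polymerase that adds single bases to microRNA ends, had an intensity of 140, 54.9 and 68.6 and log2 ratios of -1.03 (SD 0.19) and -0.73 (SD 0.21), or -1.04 and -0.50 with the neighbours removed. *ERI1*, an exonuclease that trims small RNAs, had the highest mean of the list, with -0.29 and 0.51, or -0.21 and 0.28 with the neighbours removed. The fetal and stem cell regulators *LIN28A*, *LIN28B* and *TRIM71* had no passing probe, and neither had any of the 4 PIWI genes, the germ cell relatives of the Argonautes.

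**Figure D5:**
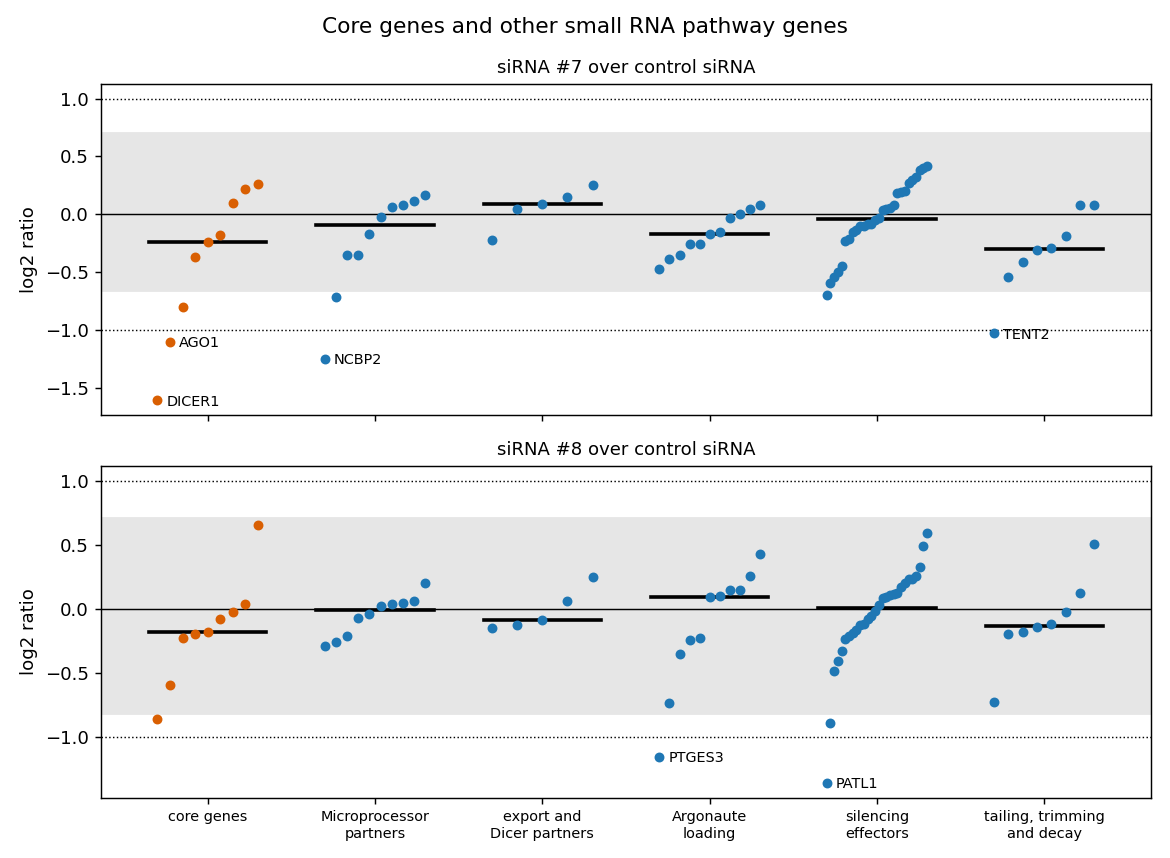
Log2 ratios to control siRNA of the 9 core genes (orange) and of 62 other pathway genes in 5 lists (blue), 1 point per gene in order of its value, with black lines at the list medians. The grey band holds the middle 90% of all 12031 genes and dotted lines mark 2-fold; the genes beyond it are named, and all of them lie on the lower side.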

How the data were processed

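RNA of HCT116 cells taken 48 h after control siRNA, siRNA #7 or siRNA #8 was hybridized to SurePrint G3 arrays, 1 per condition. The authors scanned the arrays, and the deposited intensity of each spot was background-subtracted by Agilent Feature Extraction 11.5.1.1 and not scaled between arrays. The authors further deposited log2 values of 21189 probes, centred on each probe's median, which served as an alternative. Here the log2 intensity minus the 75th percentile of each array was computed (Python 3.11.15, numpy 2.4.6, pandas 2.3.3). Feature outlier spots were left out (313 to 413 per array) and spots of a probe averaged. A probe passed if well above background on all 3 arrays (on at least 50% of its spots) and at or above the 20th percentile on at least 2, which left 18121. Accessions named 30004 probes through RefSeq (GRCh38.p14), and microRNA sequences came from the same release. The array was annotated on an older build. siRNA sequences came from the study's supplement. The spot-to-spot SD was pooled in 6 ranges of signal among probes well above background, and the number of arrays limits the precision.

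With 1 array per condition 2-fold is a rule of size. The exception is limma 3.58.1 (R 4.3.3), which joins both siRNA arrays. Other settings were the median of each array, quantile normalization, the 75th percentile over detected probes, E1A spike-in scaling (10 probes), normexp (offset 50, on median spot signals since no mean column was present), the deposited log2 values, the mean of probes, removal of the median of neighbouring spots, weaker filters and 1.5-fold. Leaving out spots with a background outlier flag was added after seeing the data. Steps were tested on simulated data. Outside the 10 genes, the genes named are the highest and lowest mean of both ratios in each list, those past 2-fold, and the 3 nearest to *AGO2*. The genes and lists were chosen with earlier results of these data known. Numbering of the siRNAs followed the sample labels, from which the names of the deposited arrays differ. Arrays of cells overexpressing *HOXA5* short RNA were not analysed here.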

Additional observations from a re-analysis of the deposited data

How the results depend on the processing

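Of 297 recomputed log2 ratios of the 9 genes 259 moved by less than their spot-to-spot error or, where past 2-fold, stayed past it, 36 moved by more than that error, 2 (both *AGO1* with siRNA #7) were no longer past 2-fold, and none that was past 2-fold changed sign. Some of the 297 could not move. Both weaker filters kept the brightest probe of each of the 9 genes, and the mean of probes leaves a gene with 1 passing probe unchanged. In all, 21 of the 297 changed sign, over 7 genes, with *TNRC6A* and *TNRC6B* the exceptions. Causes were not tested. E1A spike-in scaling moved the median of all genes by -0.32 with siRNA #7, -0.24 with siRNA #8 and 0.08 between them, so levels are relative to the typical gene. It put the median log2 ratio of the 9 genes at -0.56, -0.42 and 0.29 and the count past 2-fold at 3, 1 and 0. Under it 16.9% of all genes past 2-fold with siRNA #7 were higher, against 54.3% as reported, 14.8% against 39.2% with siRNA #8, and 54.4% against 40.6% between the siRNAs. With siRNA #7 the median was -0.31 with the median of each array, -0.15 with normexp and -0.31 with neighbours removed, and the count past 2-fold was 1 with normexp and 1 with the mean of probes. With siRNA #8 the count was 1 with neighbours removed (*DICER1*), 1 with each weaker filter (*AGO4*, then measured against a level not above background), and 3 at 1.5-fold. Between the siRNAs the median was -0.013 with the mean of probes, 0.14 with neighbours removed and 0.10 with each weaker filter, and the count was 1 with neighbours removed (*AGO1*) and 3 at 1.5-fold. Over all genes, counts past 2-fold with siRNA #7 were 246 higher and 207 lower as reported, 118 and 582 with spike-in scaling, 78 and 68 with normexp, and 1202 and 729 without a filter. With siRNA #8 they were 235 and 364 as reported, 123 and 708, 64 and 98, and 1273 and 970. Between the siRNAs they were 276 and 403 as reported, 367 and 308, 82 and 116, and 1017 and 1162; the filter on at least 1 array gave 483 and 555 there, 354 and 407 with siRNA #7 and 391 and 575 with siRNA #8. On the mean of both siRNA arrays 1 of 9 genes (*DICER1*) was past 2-fold and limma called 0 at an adjusted p below 0.05 and 1 at an unadjusted p below 0.05. No paired analysis was possible because no condition has more than 1 array. Signal over background limited *AGO4* to folds against the lowest flagged intensity of the control array.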
